A study of Mus musculus with 6 samples.

Results

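The sites described here are the listed m5C positions in chromatin-associated RNA (caRNA) that lie within a gene and on that gene's own strand, so that the site reads in the direction in which the gene is transcribed. A site was taken as sense when its base fell inside a gene body of the GENCODE vM21 comprehensive annotation on the same strand, whatever the gene type. Of 1092 listed sites, 230 were sense (21.1%, 95% Wilson interval 18.7 to 23.6), 308 lay only in a gene on the opposite strand and 554 lay outside genes. For reference, 24.0% of all bases of the genome, counted on both strands, lie in a gene of that strand. Of the 230 sense sites, 19 also lay in an opposite-strand gene.

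The libraries came from mouse embryonic stem (mES) cells, 3 from wild-type (WT) cells and 3 from cells without Tet2 (Tet2 KO, Tet2-/-). Both lines were grown on gelatin in serum with LIF, CHIR99021 and PD0325901 and were passaged free of feeder cells, and they otherwise received only the bisulfite treatment of their RNA. How many clones each genotype stands for is not given in the sources used here. Ultrafast bisulfite converts unmethylated C so that it is read as T, while m5C is read as C, and selected repeat RNAs were then amplified with 20 primer pairs. The design asks whether m5C of repeat RNA differs without TET2. The values analysed here are 1 list of positions for all 6 libraries, with no methylation level, coverage or genotype beside a site. WT and Tet2 KO were therefore not compared, the depth is unknown, no value has a replicate error, and the intervals cover only the counting of sites.

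As background, m5C is placed on RNA by methyltransferases such as those of the NSUN family, and TET2 oxidises it. Mouse genes hold many transposable element copies in their introns. B1 and B2 are short interspersed elements copied from small RNAs of RNA polymerase III, L1 is a long interspersed element, and IAPEz, MTA, MERVL and RLTR10 belong to endogenous retroviruses with long terminal repeats. A copy in the sense orientation within an intron can be transcribed by its own promoter or as a stretch of the host's unspliced transcript, and the list cannot tell these apart.

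The sense sites gathered around the primers of the study, so the primer sequences are shown before the sites. Each reverse transcription oligo consisted of an adapter, 7 random bases that serve as a molecular identifier, and a stretch that pairs with converted RNA. Written as the RNA side of that stretch, with C in capitals where the oligo carries the complement of C and so gives a C in every read, those of the 3 B2 primers, of the main IAPEz primer and of the B1 primer were as follows.
B2_Mm1t: tatatggtggtttataattatttgt
B2_Mm1a: ttataattatttgtaatgagatttg
B2_Mm2: taatttttagtaattatatggtggt
IAPEz-int: gaaCttgttgagttggtttgtaa
B1_Mm: gaaattttgttttgaaaaaataaaa
The B2, B1 and IAPEz stretches have no C other than the capital one, so every other C of the RNA under a primer is read as T.

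The contexts of the sense sites, 21 nt of the unconverted genome on the site's strand with the site in capitals, recurred across genes. These are the most frequent B2 contexts, the most frequent IAPEz context and the most copied B1 context, each given once.
B2, first: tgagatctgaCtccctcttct
B2, shifted by 2 nt: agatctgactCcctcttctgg
B2, beside B2_Mm2: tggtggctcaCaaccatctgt
IAPEz: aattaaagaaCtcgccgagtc
B1: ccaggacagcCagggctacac
The first belonged to 26 sense sites of 80 listed sites, the shifted one to 22 of 86, the one beside B2_Mm2 to 13 of 31, and the IAPEz one to 8 of 49. With C read as T, the first has 6363 copies in the genome, the shifted one 10252, the one beside B2_Mm2 46351, the IAPEz one 194 and the B1 one 82255. The 230 sense sites had 107 distinct contexts, and 136 of them (59.1%, 52.7 to 65.3) shared their context with enough others to make a group of at least 5 listed sites. In the whole list the share was 58.5%, and among sites only in an opposite-strand gene it was 63.6%.

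A primer of the study was found beside 229 of the 230 sense sites (99.6%, 97.6 to 99.9) at 5 or fewer mismatches to converted sequence. For the whole list it was 1085 of 1092 sites (99.4%). Among sense sites the match was exact for 215, had 1 mismatch for 12 and 2 mismatches for 2. On the opposite strand a match was found for 5 sense sites. The exception was in an intron of Ints11, the catalytic subunit of the Integrator complex, at chr4:155873893 (plus strand).

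The sense sites were mostly B2. B2 primers matched 173 of them (75.2%, 69.3 to 80.4), IAPEz 17 (7.39%), L1 14 (6.09%), B1 11 (4.78%), MTA 9 (3.91%), MERVL 3 and RLTR10 2. Of all listed B2 sites, 27.2% were sense (23.9 to 30.8, 173 of 635). For B1 the share was 32.4% (19.1 to 49.2, 11 of 34), for MTA 20.0% (10.9 to 33.8, 9 of 45), for L1 10.6% (6.42 to 17.0, 14 of 132) and for IAPEz 7.76% (4.90 to 12.1, 17 of 219). Among sites in genes of either orientation, 42.9% of B2 (38.2 to 47.8, n = 403), 32.1% of IAPEz (21.1 to 45.5, n = 53), 38.9% of L1 (24.8 to 55.1, n = 36) and 57.9% of B1 sites (36.3 to 76.9, n = 19) were sense, and these intervals overlap.

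**Figure D1:**
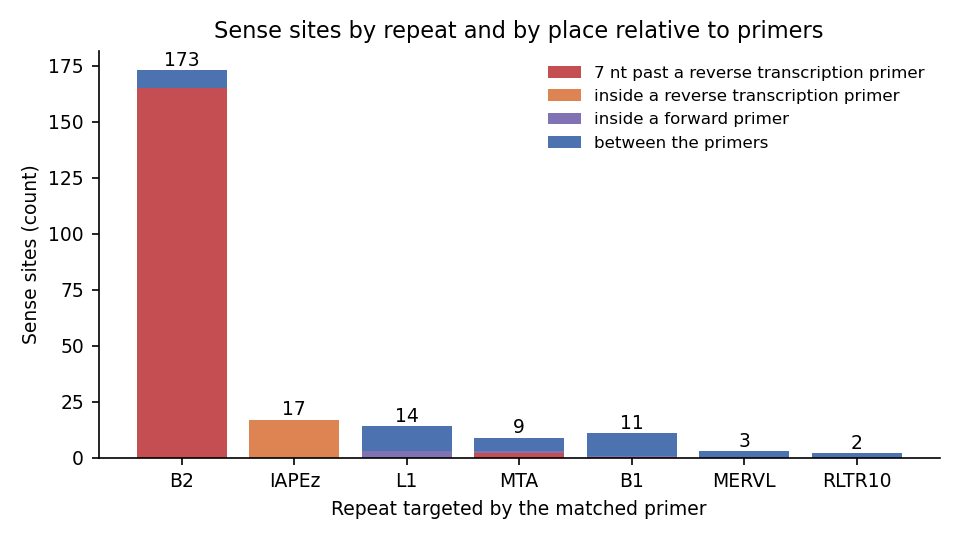
Number of sense sites (y axis) by the repeat that the matched primer targets (x axis), with colours for the place of the site relative to the primers. B2 accounts for 173 of the 229 matched sites and almost all of its bar is the 7 nt past a primer, all 17 IAPEz sites lie inside a primer, and the sites between the primers are spread over B2, L1, MTA, B1, MERVL and RLTR10.

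The place of a site relative to the primers differed between repeats. In all, 167 sense sites (72.6%, 66.5 to 78.0) lay in the 7 nt that follow the reverse transcription primer on the RNA, where the oligo carries its random bases. A cDNA primed by that oligo holds no copied RNA base there. The methods state that the 7 bases were extracted as identifiers, and whether this removed them from every read before alignment is not given in the sources used here. How positions in that stretch came to be listed was not tested. A further 17 (7.39%, 4.67 to 11.5) lay inside the primer, 5 inside a forward primer, and 40 (17.4%, 13.04 to 22.8) between the primers of at least 1 amplicon, where a read copies the RNA. Of the 167, 44 also lay inside another amplicon's primer.

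B2 showed this most clearly. Of its 173 sense sites, 165 lay in the 7 nt past a B2 primer and 8 between primers. Of the 165, 116 lay past B2_Mm1a, 39 past B2_Mm2 and 10 past B2_Mm1t. The B2 primers pair with overlapping stretches of the element, and 1 locus can match all 3. Rab23, a small GTPase gene chosen as an example after the values were seen, holds one of these loci at chr1:33722870-33722897 (plus strand, GRCm38), with the 7 nt past the B2_Mm1a primer in capitals.
Rab23: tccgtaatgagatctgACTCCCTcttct
Such loci have several C in a row, so the listed C can be counted by distance past the primer. At the B2 loci with a sense site and a B2_Mm1a primer match of 2 or fewer mismatches, 116 of 366 C at 1 to 7 nt past the primer were listed (31.7%, 27.1 to 36.6) and 0 of 203 at 8 to 14 nt (0 to 1.86). Within the stretch, 62 of 74 C at 2 nt and 51 of 97 at 4 nt were listed, but 0 of 98 at 5 nt and 0 of 94 at 6 nt. At 39 loci with the B2_Mm2 primer, 38 of 116 C at 1 to 7 nt were listed (32.8%, 24.9 to 41.7) and 0 of 88 at 8 to 14 nt (0 to 4.18). Farther out, at 15 nt, 10 of 10 were listed, and each of these lay within 7 nt past another B2 primer. The 0 counts at 8 to 14 nt are set by the primers. B2_Mm1a ends farthest along the RNA of the B2 primers, so no B2 amplicon copies the RNA past its random bases. The 14 nt past B2_Mm2 lie under both other B2 primers. Past the B2_Mm1t primer, 10 of 53 C at 1 to 7 nt were listed (18.9%, 10.6 to 31.4), all of them at 1 nt, and 116 of 610 at 8 to 20 nt (19.0%, 16.1 to 22.3). All 116 lay within 7 nt past another B2 primer, so for B2_Mm1t alone the listed C were not gathered at its own edge. The loci enter because they hold a listed site, so the counts at listed distances describe the list and are not rates in the genome.

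**Figure D2:**
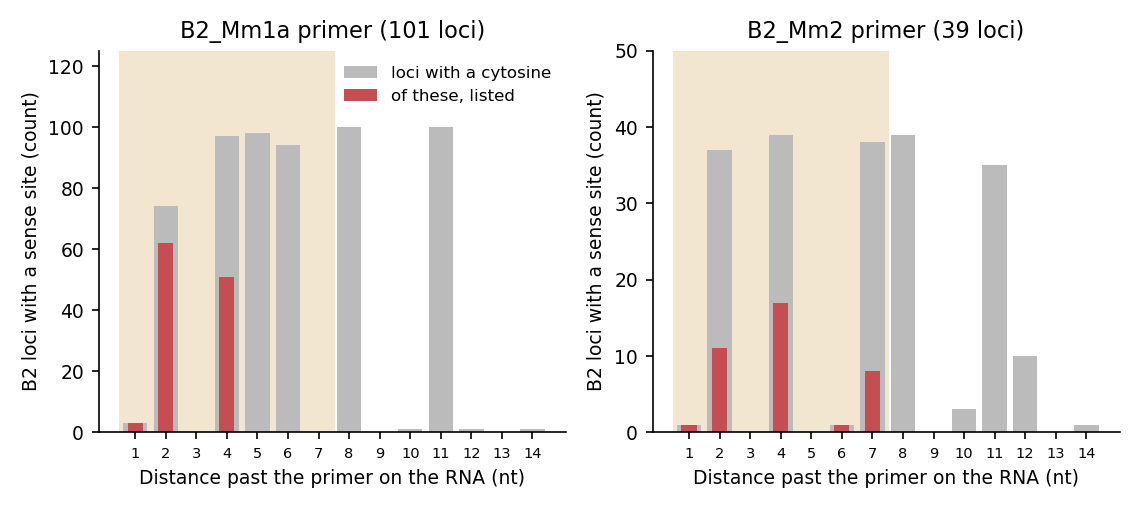
Number of B2 loci with a sense site (y axis) that have a cytosine at each distance past the primer on the RNA in nt (x axis; grey), and the number of those cytosines that are listed (red), for the B2_Mm1a primer (left) and the B2_Mm2 primer (right). Shading marks the 7 nt of the random bases. Within the 14 nt drawn, no listed cytosine lies past the shading, where no B2 amplicon copies the RNA. At 8 nt on the left, 100 loci have a cytosine and 0 are listed, a count set by the primers. The B2_Mm1t primer is not drawn.

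Over all 167 sites of this stretch, 74 were at 2 nt, 68 at 4 nt, 15 at 1 nt, 9 at 7 nt, 1 at 6 nt and none at 3 or 5 nt. Apol7e, a gene of the apolipoprotein L family, had 4 sites within 6 nt at chr15:77704790, 77704792, 77704794 and 77704795 (plus strand), at 2, 4, 6 and 7 nt past the primer. These contexts had 38, 17, 10 and 11 genomic copies, far fewer than the common B2 contexts. The 2 sense sites of this kind outside B2 lay side by side in Zfp423, at chr8:87788937 and 87788938 (minus strand), past the MTA primer.

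All 17 IAPEz sense sites lay inside a reverse transcription primer. At 16 of them the site was the base at which the primer itself carries the complement of C, so the C read there is the primer's and says nothing of the RNA. The same held for 213 of all 219 listed IAPEz sites. The exception was in Gm49329 (chr12:17960140, plus strand), in the context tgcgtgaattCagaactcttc, where the other IAPEz primer gives T. The IAPEz hosts included Spag16, Exoc4, Wwox, Sirt5, Pros1, Cdcp1, Rgs7bp and Mitf, the regulator of melanocyte genes, named here after their values were seen. The window of 75 nt on either side, with C read as T, was unique at 3 of the 17 sites. It had 2 to 80 copies at the others, except in Mitf, where it had more, so that most of these sites cannot be assigned to 1 host by that window.

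The 40 sites between primers formed 38 clusters in 40 host genes. Of the 40, 32 lay in no primer of any amplicon, and 4 (2 in Tcf12 and 1 each in Slco1a6 and 4930505N22Rik) also lay in another amplicon's primer or the 7 nt past it. Of the 40, 33 had a unique window of that length. Over their loci, 40 of 594 C between the primers were listed (6.73%, 4.98 to 9.04). The hosts of these sites were named after their values were seen, except where they fall under the naming rule.

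B1 sites between primers were the most uniform. Of 10, 9 lay 12 or 14 nt before the primer, at a C followed by NGGG, where N is any base. These were in Glg1 and Ppp2r3a at 12 nt, and in Gm14455, Zbtb44, Man2c1, Trak1, Gm867, Acaca and Dennd6a at 14 nt. Acaca encodes acetyl-CoA carboxylase, which starts fatty acid synthesis, and Ppp2r3a a regulatory subunit of protein phosphatase 2A. Of 10 C followed by NGGG between the primers of these loci, 9 were listed (90.0%, 59.6 to 98.2), against 1 of 147 other C (0.680%, 0.120 to 3.75). The loci entered through a listed site, so the first share is set in part by the choice. The other was in Map7d2, 32 nt before the primer, in the context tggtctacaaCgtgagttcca. The NGGG sites had near-identical contexts, of which these 4 show the differences.
Glg1: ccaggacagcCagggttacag
Acaca: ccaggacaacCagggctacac
Man2c1: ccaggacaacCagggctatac
Gm867: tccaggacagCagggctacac
All 11 B1 sense sites had a unique window, and the eleventh, in Pinx1, an inhibitor of telomerase, lay in a forward primer. Among other repeats, 0 of 7 C followed by NGGG at the L1 loci and 0 of 6 at the RLTR10 loci were listed.

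The 8 B2 sites between primers lay 17 to 47 nt before the primer. They were in 4930505N22Rik, Map4, Arhgap15, Zfp566 (with Gm26920), Med25, 2410131K14Rik, Kdm2a and Mrps18c (with Gm43511). Kdm2a encodes a histone H3 demethylase and Med25 a Mediator subunit. The sites in Zfp566 and Med25 shared a place 32 nt before the primer, and their contexts are set side by side.
Zfp566: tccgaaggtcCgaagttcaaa
Med25: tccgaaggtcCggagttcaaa
All 8 had a unique window. Between the primers of these loci, 8 of 128 C were listed, 4 of them among the 14 C followed by G.

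The retroviral repeats gave few sites between primers. MTA had 6, of which 2 were in 4930519F16Rik and 1 each in Gsap, 2010111I01Rik, Synpr and Fam19a2, and its site in Reps2 lay in a forward primer. MERVL had 3, in Gm18204 (chr7:11170861, plus strand), Dner (chr1:84547942, minus strand) and Trpc4 (chr3:54169184, plus strand), a cation channel gene. Their contexts were as follows.
Gm18204: gtagcaatagCgctcaagttg
Dner: gaatcttctcCcttgtagcaa
Trpc4: cttgaggagaCtcttctctct
The Gm18204 context occurred once in the converted genome, whereas the wide window of the Dner site had 274 copies. RLTR10 had 2, both in Enox1 at chr14:77234226 and 77236914 (plus strand), in the same context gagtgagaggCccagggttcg and each 157 nt before the primer. Each of the Enox1 windows had 2 copies.

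The 11 L1 sites between primers lay 19 to 69 nt before the primer. Tcf12, a helix-loop-helix transcription factor gene, held 2 of them 3 nt apart at chr9:71971871 and 71971874 (minus strand), in a window with 2 copies. Both also lay in the 7 nt past the first L1MdTf primer, at 5 and 2 nt, while lying between the primers of the second L1MdTf amplicon. The others included those in A630073D07Rik, Gm29536, Dab1, an adaptor of reelin signalling, 4930509J09Rik, Slco1a6, an overlapping group of 3 gene models on chromosome 18 (Gm37013, Gm37388 and Gm42416), and Tmem241, also on chromosome 18, with 2 sites in separate L1 copies. Another 3 L1 sense sites, in Gm47103, Stxbp4 and Il1rapl2, lay in a forward primer.

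**Figure D3:**
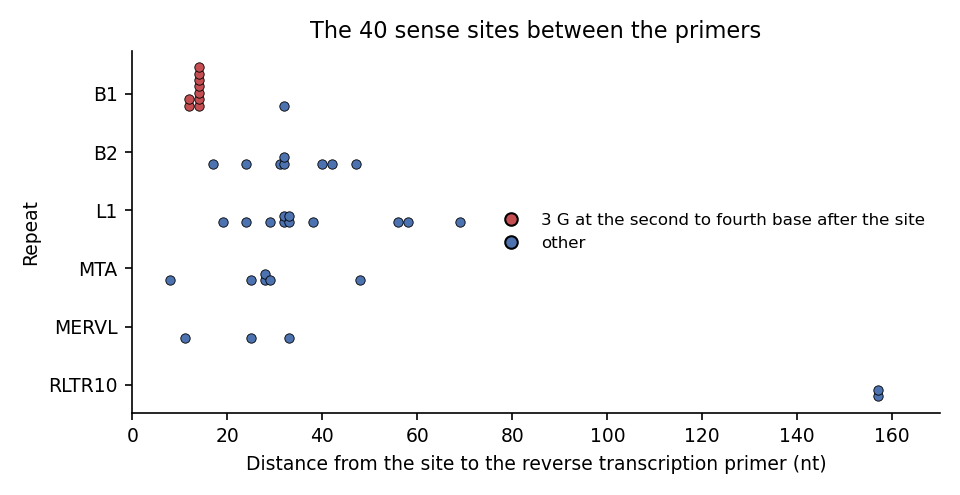
Distance in nt from each of the 40 sense sites between primers to the reverse transcription primer (x axis), by repeat (y axis), each point 1 site and stacked where distances tie. Red points are sites followed by NGGG. The red points are all B1, at 12 and 14 nt, and the other repeats spread from 8 to 157 nt.

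The host genes were 165, of which 130 were protein coding and 12 lincRNA genes. A protein-coding host held 183 sense sites (79.6%, 73.9 to 84.3), and 47 had only other hosts. Introns held 220 sites (95.7%, 92.2 to 97.6), exons of non-coding transcripts 8 and UTRs 2. Coding sequence held 0 of 230, which allows up to 1.64% by the Wilson interval. How much of the repeat sequence in genes is intronic was not counted, so these shares have no background here. Of the 165 hosts, 100 had 1 site and 65 had at least 2. Only 7 had sites in clusters more than 200 nt apart. These were Ogdh, Nrf1, Enox1, Tmem241 and the 3 overlapping models on chromosome 18, which share the same sites.

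The most sites in 1 host were 4, in Ogdh and in Apol7e. Ogdh, a subunit of the 2-oxoglutarate dehydrogenase complex of the citric acid cycle, had 3 at chr11:6310020, 6310022 and 6310025 (plus strand), in the host transcript's intron 2, and 1 at 6316523 in intron 3. All 4 were B2 sites past a primer, at 2, 4, 7 and 2 nt. The first 3 contexts had 59234, 46351 and 48203 converted copies and the last 3101. Nrf1, a transcription factor of mitochondrial gene programmes, had 1 site at chr6:30054697 and 2 at 30080879 and 30080881 (plus strand), all in intron 1. These too lay past a B2 primer, at 1, 2 and 4 nt.

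Exonic sense sites were 10. The UTR sites were in Cxcr2, a chemokine receptor (chr1:74159997, plus strand), 4 nt past a B2 primer, and in Glg1, a Golgi glycoprotein gene (chr8:111155350, minus strand), the B1 site described above. Exons of non-coding transcripts held 2 sites in Slc2a3, a glucose transporter (chr6:122739264 and 122739266, minus strand), which lay 4 and 2 nt past a B2 primer. Further exonic sites were in Med25 (chr7:44883961, minus strand), Gm38194 (chr1:195321670, plus strand), Gm43511 with Mrps18c (chr5:100800873, plus strand) and Gm47103 (chr9:105086149, plus strand). Of the 10, the sites in Glg1, Med25 and Mrps18c lay between primers.

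Protein-coding hosts were longer than protein-coding genes in general. Their length ran from 2950 nt (Gm867) to 4434882 nt (Gm20388, a model that spans several genes) with a median of 60557 nt, against a median of 17425 nt for all protein-coding genes, and 110 of the 130 exceeded the latter. A longer gene has more bases in which a site can fall, so this comparison with an unweighted median does not show a property of the hosts. A median weighted by gene length was not computed, and the number of repeat copies per gene was not counted. The median was 36197 nt for hosts of B2 sites (n = 91), 72326 nt for B1 (n = 10), 724895 nt for IAPEz (n = 11) and 857356 nt for L1 (n = 11). The IAPEz and L1 medians each count the overlapping models Gm37013, Gm37388 and Gm42416 separately, although these share their sites. With that locus counted once, the middle host is Mitf (214298 nt) for IAPEz and Tcf12 (269184 nt) for L1.

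**Figure D4:**
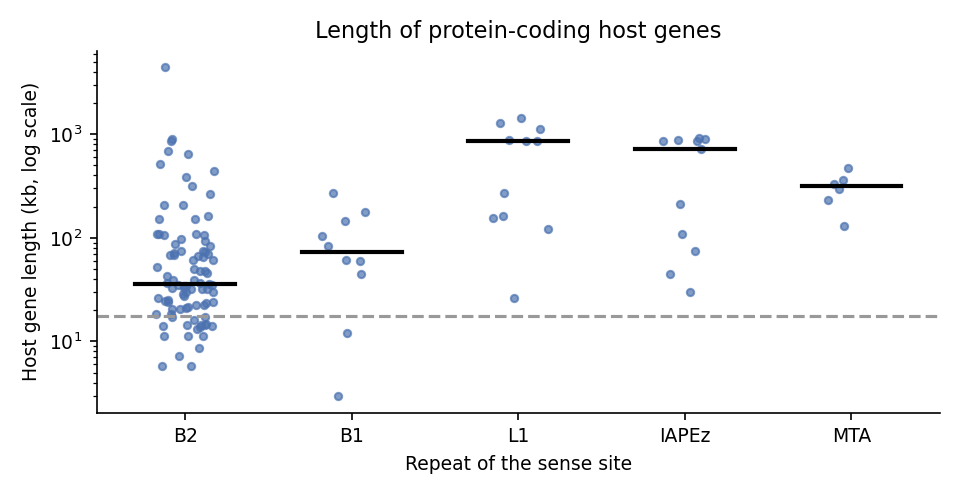
Length of protein-coding host genes in kb (y axis, log scale) by the repeat of their sense sites (x axis). Points are genes, thick lines medians and the dashed line the median of all protein-coding genes (17425 nt). Hosts of L1 and IAPEz sites have medians of 857356 and 724895 nt, above that of B2 hosts (36197 nt). Both medians count the overlapping models of 1 chromosome 18 locus separately, and with it counted once the middle hosts have 269184 and 214298 nt. MERVL and RLTR10, with 2 or fewer hosts each, are left out.

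The 165 intronic sites in protein-coding hosts with a transcript to place them in were spread along the introns. The first intron held 60 (36.4%, 29.4 to 43.9), and first introns make up 36.8% of the intron length of those transcripts. That length share rests on Gm20388, whose first intron is 4384418 nt long. Without Gm20388 the first intron held 58 of 163 sites (35.6%, 28.6 to 43.2) and first introns made up 21.8% of the intron length. The next intron held 23 and the last 15. When the transcript was cut from its start into 3 equal stretches, 67, 61 and 37 sites fell in the front, middle and end stretch. The median distance to the nearest exon was 3608 nt, from 153 nt in Pigb to 751894 nt, and 0 of 165 lay within 100 nt of an exon (0 to 2.28%). Dlat, at 177 nt, and Nbr1, at 192 nt, came next. No background was counted for these distances.

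Of 111 genes on the lists for RNA m5C, chromatin, repeat silencing and pluripotency, 1 hosted a sense site (0.901%, 0.159 to 4.93), against 0.593% of all protein-coding genes, so the lists sat near the background. None of the 20 m5C enzymes and readers, 36 genes of Polycomb and H2AK119ub and 25 genes of repeat silencing hosted a sense site. Of 30 pluripotency genes, Tcf7l1, a Wnt pathway repressor of pluripotency genes, hosted 1, at chr6:72734739 (minus strand), 4 nt past a B2 primer in the frequent context shown above.

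Sense and antisense sites had overlapping intervals for B2, for IAPEz and for each place relative to the primers, whereas the shares below for sites outside genes lay beyond both intervals. B2 accounted for 75.2% of sense, 74.7% of antisense (69.5 to 79.2) and 41.9% of intergenic sites (37.8 to 46.0), and IAPEz for 7.39%, 11.7% (8.56 to 15.8) and 29.96% (26.3 to 33.9). The 7 nt past a primer held 72.6% of sense, 67.9% of antisense (62.5 to 72.8) and 38.3% of intergenic sites (34.3 to 42.4). Sites between primers were 17.4%, 17.2% (13.4 to 21.8) and 26.4% (22.9 to 30.2). These are shares of a list and were not tested, since neighbouring sites and sites in near-identical copies are not independent.

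**Figure D5:**
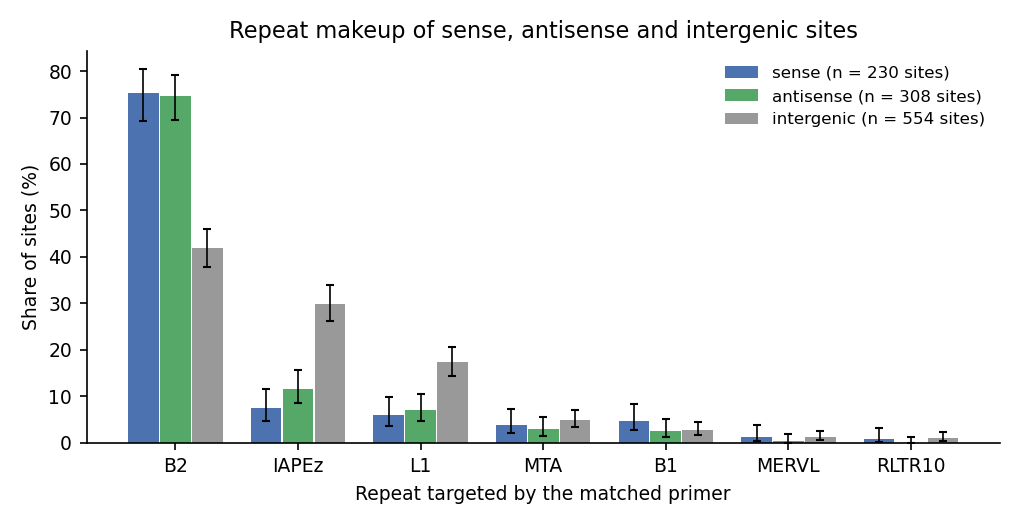
Share of sites in % (y axis) by the repeat of the matched primer (x axis) for 230 sense, 308 antisense and 554 intergenic sites, with 95% Wilson intervals as error bars. Sense and antisense bars overlap in their intervals for B2 (75.2% and 74.7%), whereas the intergenic B2 share is 41.9%.

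How well a site belongs to its host depends on the copies of its surroundings. The converted window of 75 nt on either side was unique for 156 sense sites (67.8%, 61.5 to 73.5), that of 50 nt for 85 (37.0%, 30.98 to 43.4) and that of 25 nt for 29 (12.6%, 8.92 to 17.5). In the whole list these shares were 59.2%, 34.0% and 11.4%. The converted 21-nt context had 1 copy for 2 sites, a median of 6363 copies and at most 82255. The host of a site without a unique window is the host of the listed position and may not be the source of the read.

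The next base after a sense site was C for 32.6%, T for 28.3%, A for 26.1% and G for 13.04% (9.29 to 18.01, 30 of 230). NGGG followed 9 sense sites (3.91%, 2.07 to 7.27), all of them the B1 sites between primers. Among 4601 unlisted C within 60 nt of the sense sites, 8.82% were followed by G and 0.522% by NGGG. Between primers, 11 of 40 sites were followed by G (27.5%, 16.1 to 42.8). The sense sites lay on every chromosome but Y, where 6 sites were listed. They ran from 4 on chromosomes 16 and 18 (of 38 and 29 listed) to 22 on chromosome 9 (of 64 listed). The plus strand held 141 of them (61.3%, 54.9 to 67.4), against 58.0% of the whole list.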

How the data were processed

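caRNA of WT and Tet2 KO mES cells (3 libraries each) was sequenced as bisulfite amplicons. Per the submitters' notes and the study's methods, the authors trimmed reads with cutadapt 4.0, took a 7-nt molecular identifier from the second read, aligned to mm10 with HISAT-3n, discarded reads with many unconverted C and called m5C sites by a binomial P value under 0.01. The deposited list gives positions and strands, with 0 columns of values per library. Whether it was narrowed by genotype is not stated.

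The listed coordinate was read as 1-based, which put 1092 of 1092 sites on a C of GRCm38 (192 if read as 0-based). Genes came from GENCODE vM21. The most exonic class of any same-strand transcript was used (coding, UTR, non-coding exon, intron). Intron numbers came from 1 basic transcript per site.

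The 20 primer pairs, taken from the study's oligo list, were matched on the site's strand with C read as T, allowing 5 mismatches. The search ran to 200 nt past the site and to 20 nt beyond the primer. A second primer counted within 2 mismatches of the best. Ties between primers went to the earlier in the list. A site was placed by the first that applied of between primers, 7 nt past a primer, in a primer and in a forward primer. Copies were exact matches with C read as T over the 2 strands of the autosomes and sex chromosomes. Clusters joined same-strand sites within 200 nt. Steps were tested on simulated sequences. Python used numpy 2.4.6, pandas 2.3.3, scipy 1.17.1, numba 0.67.0 and matplotlib 3.10.9.

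No test was run, since the list has no levels, so shares have 95% Wilson intervals. The members, lists and naming rule were chosen with earlier results of these data known. The rule named hosts with separate clusters, exonic sites, list membership or an amplicon of 3 or fewer sense sites, and the hosts with the most sites and the longest and shortest bodies. The placement classes, the search beyond the primer, the limit on second primers, the basic-annotation definition (a basic transcript spans the site) and the shares of B2, of the 7-nt stretch and between primers were set after the data had been seen. Alternatives changed the annotation, neighbouring sites, opposite-strand genes, host type, mismatches, distances, context and window length. Some hosts that fall under the rule are not reported here.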

Additional observations from a re-analysis of the deposited data

How the results depend on the processing

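No paired analysis was possible because positions were deposited without a value from any replicate, and no replicate could be left out for the same reason. Of 93 values of 15 results under alternatives, 74 stayed within the interval of the main value and 19 did not. The cause was not tested. Under the basic annotation 97.7% of sense sites were intronic. With the first site of each cluster only, the 7 nt past a primer held 62.8%, sites between primers 23.2% and B2 67.1%. With protein-coding hosts only, sense sites were 16.8% of the list and 73.8% had a unique window. Allowing 7 mismatches matched 100% of sites to a primer. A 31-nt context was shared by at least 5 listed sites for 38.7%, and unique windows fell to 37.0% at 50 nt and 12.6% at 25 nt on either side, in place of 75 nt. Without B2 (added after the data were seen), sense sites were 12.5% of the list, 73.7% had a protein-coding host, 19.3% were B1, 33.3% lay inside or within 10 nt before the best-matched primer (23.0% with B2), 29.8% had a shared context, 59.6% a unique window and 15.8% were followed by NGGG. The 7 nt past a primer then held 3.51% and sites between primers were 56.1%, so the prominence of that stretch rests on B2. Counting any second primer within 5 mismatches (also added) gave 72.2% and 17.4% for these, against 72.6% and 17.4%. Read depth is unknown. A site is listed only if it passed the P threshold, so the shares may depend on depth, and this was not tested. A site near the P threshold cannot be told from a strong one.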
